A study of Rattus norvegicus with 6 samples.

Results

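Cytosolic ribosomal protein genes were described in primary granulosa cells of the rat ovary, which line the follicle and nurse the oocyte. The members are the rows of the expression table whose symbol is Rpl or Rps with a number (with an a, x or l suffix where present), Rplp0, Rplp1, Rplp2 or Rpsa. There were 80 such rows among 17525, of which 48 encode proteins of the large subunit and 32 proteins of the small subunit. Granulosa cells came from SD rats 21 days old that had received 60 IU of pregnant mare serum gonadotropin, which drives follicles to grow, with ovaries taken 48 h later, per the series' design text. Cells were released with a pancreatic enzyme and cultured, and immunostaining for FSHR served to identify them. The analysed group, ATR, comprised 3 libraries of poly(A) RNA called ATR 1, ATR 2 and ATR 3. Atrazine, a herbicide, is the exposure named in the title of the series, but the labels do not spell out ATR, nor give a dose, a length of exposure or whether animals or cells were exposed. The 3 Control libraries, prepared from the same kind of cells, are not analysed here, so no value below is an effect of exposure. Whether each library stands for its own animal or culture is not stated, and the spread between libraries may be technical. Values given in a row are those of ATR 1, ATR 2 and ATR 3, in that order.

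The cytosolic ribosome joins a small subunit, which reads the messenger RNA, to a large subunit, which forms the peptide bond. Each subunit holds ribosomal RNA and a fixed set of proteins, nearly all of them in a single copy, so cells make these proteins in matched amounts. Their mRNAs are known in mammals for a terminal oligopyrimidine tract, a run of C and T bases at the very start of the transcript. Through this tract the growth-controlling kinase complex mTORC1 and the binding protein LARP1 govern their translation.

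Reads assigned to genes totalled 19020494, 18677212 and 19170552. Granulosa cell markers were present in part. Gja1, Inha, Inhba, Gata4, Nr5a1 and Foxl2 averaged at least 10 TPM (transcripts per 1000000, a level per transcript length). Fshr had 155, 111 and 103 reads, and the granulosa markers Amh and Cyp19a1 had at most 2.33 reads in a library. Some surface epithelium and smooth muscle markers were abundant as well, with summed levels of 2250, 2090 and 2171 TPM and of 17677, 16486 and 16334 TPM. Of 8 surface epithelium markers, 5 averaged at least 1 TPM and 4 at least 100 TPM. Of 6 smooth muscle markers, 6 averaged at least 1 TPM and 4 at least 100 TPM. Theca, oocyte and endothelial markers summed to at most 4.53 TPM in any library.

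Ribosomal protein genes were among the most abundant transcripts of these cells. Together the 80 members held 9.01%, 9.77% and 9.76% of all TPM in the 3 libraries, a mean of 9.51% ± 0.440 (SD, n = 3). They took a smaller part of the reads, 2.53%, 2.81% and 2.81%, since TPM divides by transcript length and theirs is short. The ratio of reads to TPM, which follows transcript length, was below the median of all genes above 5 TPM for each of the 78 members above that level. Its median over these members was 0.222 of the median of those genes. The median member stood at 1200 TPM, against 10.1 TPM for the median gene of the table. Of the 154 genes averaging 1000 TPM or more, 54 (35.1%) were members. In bulk RNA such as this, fewer cells of a type and less RNA per cell cannot be told apart.

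Rps2, a protein at the mRNA entry side of the small subunit, was the most abundant member, with 3745, 4093 and 4295 TPM. It ranked number 10 among all genes. Rpl41, which encodes the smallest ribosomal protein, followed with 2700, 3039 and 2798 TPM. Rpl13a, also known in human cells as part of an interferon-induced translational silencing complex, had 2723, 2852 and 2640 TPM. The order of Rpl41 and Rpl13a was not the same in every library, and their ranges overlapped. Rplp0, the base of the ribosomal stalk that recruits elongation factors, had 2151, 2353 and 2477 TPM.

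The next members lay close together. Rpl21, a large subunit protein, had 1853, 2096 and 1954 TPM, and Rpsa, first described as a laminin receptor, had 1744, 1860 and 1902 TPM. Rps16 had 1669, 1831 and 1707 TPM, and Rps19, the first gene linked to Diamond-Blackfan anaemia in humans, had 1630, 1800 and 1758 TPM. These neighbours overlapped in range. Rpl23a, which lies at the exit of the peptide tunnel, had 1669, 1694 and 1774 TPM. Rpl19 had 1574, 1777 and 1765 TPM. The other 61 members at 500 TPM or more averaged at most 1682 TPM, and the quartiles of all members were 886 and 1409 TPM. Ranked by mean level, 69 of 79 neighbouring pairs overlapped in their ranges over the 3 libraries, so most of the order could not be resolved.

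**Figure D1:**
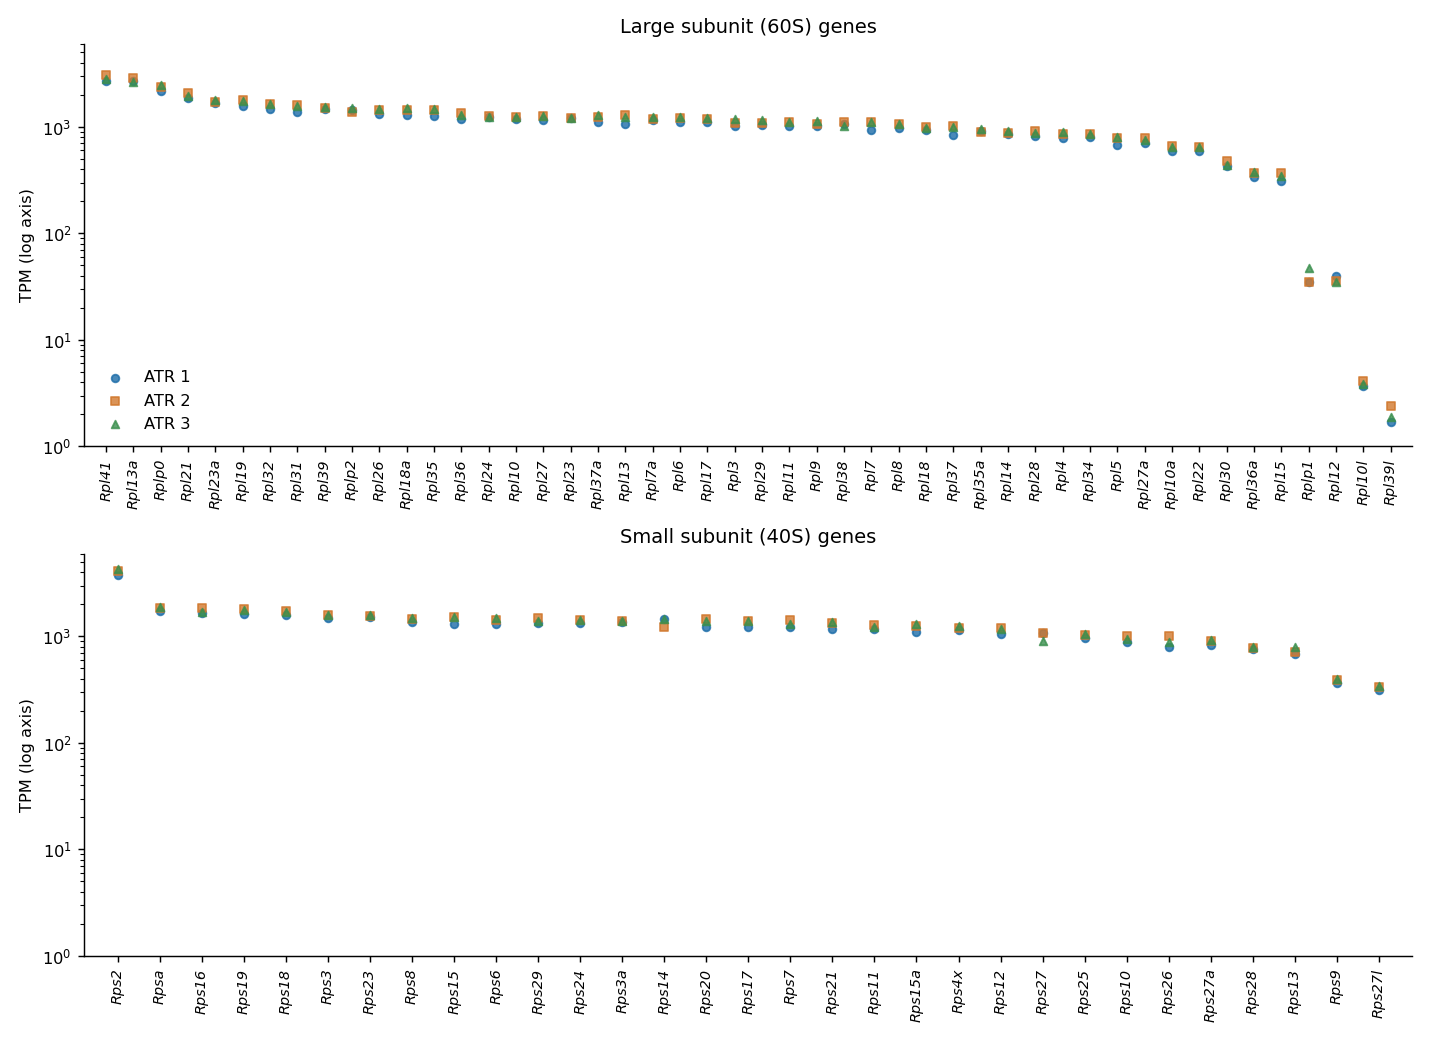
TPM of 79 of the ribosomal protein genes in ATR 1, ATR 2 and ATR 3 (points, log axis), ordered by mean level, for large (upper) and small (lower) subunit genes. Most genes sit near the median of 1200 TPM, while Rplp1, Rpl12, Rpl10l and Rpl39l lie far below it.

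Large subunit rows summed to 50612, 54964 and 54901 TPM and small subunit rows to 39449, 42769 and 42713 TPM. The ratio of these sums was 1.28, 1.29 and 1.29. Per row the order turned round, with a median of 1098 TPM for large and 1325 TPM for small subunit genes. The ratio of the medians was 0.855, 0.816 and 0.864 in the 3 libraries.

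At 500 TPM or more stood 71 members, and 9 lay below. Among these, Rpl36a had 338, 371 and 376 TPM and Rpl15 had 311, 367 and 347 TPM. Rpl15 was not low in reads, with 5328, 6311 and 6098. Its ratio of reads to TPM, which follows transcript length, was 0.813 of the median of all genes above 5 TPM. This was the largest ratio among the members above that level. Others of the 9 are copies of another member. Rpl10l, an autosomal copy of Rpl10 that is needed in mouse male germ cells, had 3.68, 4.10 and 3.84 TPM, against 1184, 1249 and 1251 TPM for Rpl10, which joins the large subunit late in its assembly. Rpl10 thus exceeded Rpl10l by 322, 305 and 326 times. Rpl39l, a testis-enriched copy of Rpl39, had 1.68, 2.39 and 1.87 TPM from 7, 10 and 8 reads. Rpl39, a small protein that lines the peptide exit tunnel, had 1456, 1508 and 1526 TPM. Rps27l, a copy of Rps27 induced by p53 in human cells, was well expressed at 317, 333 and 345 TPM. Rps27 itself had 1074, 1071 and 902 TPM and exceeded its copy by 3.39, 3.22 and 2.61 times.

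Rplp1 and Rpl12, both parts of the stalk region, were low as well. Rplp1 and Rplp2 form paired dimers on the stalk, yet Rplp1 had 34.9, 35.3 and 47.1 TPM while Rplp2 had 1454, 1388 and 1489 TPM. The ratio of Rplp2 to Rplp1 was 41.6, 39.3 and 31.6. Rpl12, which sits at the base of the stalk beside Rplp0, had 39.6, 35.3 and 34.7 TPM. Read counts of both rows were not whole numbers, as arises when reads are shared between rows. The 1 row that RefSeq names as a copy of Rplp1 had at most 3.09 TPM, and no copy row of Rpl12 was found. Whether these 2 levels reflect the transcripts or the counting was not tested.

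Such counts were common in the family. They lay more than 0.001 from a whole number in some library for 48 of 80 members (60.0%), against 24.2% of all genes. Outside the symbol rule, 66 further rows belong by their RefSeq names to 40 of the members and are called copy rows here. RefSeq names 64 of them as numbered copies, such as Rps14-ps7 or Rpl30l2, and 2 with the plain names Rps9 and Rps19, whose member rows have no RefSeq match. Most of these rows were near zero, and 14 reached 10 TPM. The copy rows held 0.239%, 0.256% and 0.261% of TPM.

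Among the copy rows, 4 reached 300 TPM. The member row Rps9, a small subunit protein, had 363, 387 and 402 TPM, and the row that RefSeq names Rps9 held exactly the same values. Both rows held 2330, 2497 and 2650 reads, all whole numbers. Summed, the 2 rows gave 726, 774 and 804 TPM. Whether the same reads were counted in both rows was not tested, so this sum may be too high. Rpl30 had 431, 479 and 434 TPM, and with its copies 808, 875 and 862 TPM. Rps14, which lies on the platform of the small subunit, had 1462, 1228 and 1443 TPM alone and 2097, 2005 and 2160 TPM together with Rps14-ps7. Summed, Rpl30 and, with that limit, Rps9 passed 500 TPM in each library. Both stayed below the lower quartile of the members, 886 TPM.

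Start sites were compared with RefSeq promoters of build GRCr8, which were found for 61 of the 80 members. The windows below run from 25 bases before to 20 bases from the annotated start, and are shown because the pyrimidine tract is the feature that defines this class of mRNA. Capitals mark the longest run of at least 5 C or T bases that reaches within 5 bases of the start. Such a run was found in 44 of 61 members (72.1%) and in 33.5% of all genes with a promoter. This rule is looser than that of the tract counted after the windows. Rps2 has the run but not that tract, at the start or within 5 bases of it. The last 4 have no such run.
Rps2, chr10:14251823-14251867, plus strand: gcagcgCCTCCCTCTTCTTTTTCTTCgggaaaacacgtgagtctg
Rplp0, chr12:46718371-46718415, minus strand: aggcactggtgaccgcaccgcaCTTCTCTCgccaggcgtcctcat
Rpl19, chr10:83519039-83519083, plus strand: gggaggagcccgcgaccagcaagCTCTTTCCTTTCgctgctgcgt
Rpl13, chr19:68062489-68062533, plus strand: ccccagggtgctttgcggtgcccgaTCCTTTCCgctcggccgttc
Rpl10, chrX:157205825-157205869, plus strand: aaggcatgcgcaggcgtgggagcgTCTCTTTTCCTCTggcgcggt
Rps14, chr18:56498235-56498279, plus strand: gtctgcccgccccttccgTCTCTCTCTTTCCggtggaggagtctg
Rps26, chr7:1643385-1643429, minus strand: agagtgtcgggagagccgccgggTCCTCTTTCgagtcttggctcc
Rps27, chr2:177964587-177964631, minus strand: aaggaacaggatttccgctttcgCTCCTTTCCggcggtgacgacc
Rplp1, chr8:71290853-71290897, minus strand: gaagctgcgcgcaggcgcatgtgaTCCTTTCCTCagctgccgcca
Rpl12, chr3:36661915-36661959, plus strand: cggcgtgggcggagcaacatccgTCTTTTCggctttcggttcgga
Rpl10l, chr6:90281963-90282007, minus strand: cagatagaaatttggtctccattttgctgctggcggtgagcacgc
Rpl39l, chr10:5966602-5966646, minus strand: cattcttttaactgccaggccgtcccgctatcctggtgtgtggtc
Rps27l, chr8:76443633-76443677, plus strand: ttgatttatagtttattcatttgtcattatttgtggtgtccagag
Rpl41, chr7:1563478-1563522, minus strand: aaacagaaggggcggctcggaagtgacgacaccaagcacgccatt

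A C at the annotated start followed by 4 bases that are each C or T was found in 22 of 61 members (36.1%), against 854 of 27457 genes with a promoter (3.11%). When any base within 5 of the start was allowed, the counts were 37 of 61 (60.7%) and 19.0%. The initiator TCT, with its C as the start base, stood in 12 of 61 members (19.7%) and in 2.24% of all genes. This motif can overlap the tract, and both depend on which base is annotated as the start. Mitochondrial ribosomal protein genes had the tract at the start in 2 of 61 cases and translation factor genes in 0 of 29. Within 5 bases of the start the counts were 15 of 61 (24.6%) and 7 of 29 (24.1%). In the 250 bases before the start, the letters CCGGAA were sought on either strand. They were found in 24 of 61 members (39.3%), in 14.1% of all genes and in 25.2% of the genes tested for spread. They were not particular to the members, with 26 of 61 mitochondrial ribosomal protein genes (42.6%) and 12 of 29 translation factor genes (41.4%). AAGATGG, which can overlap CCGGAA by its first bases, was found in the same window on either strand in 2 of 61 members (3.28%) and in 5.02% of all genes.

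**Figure D2:**
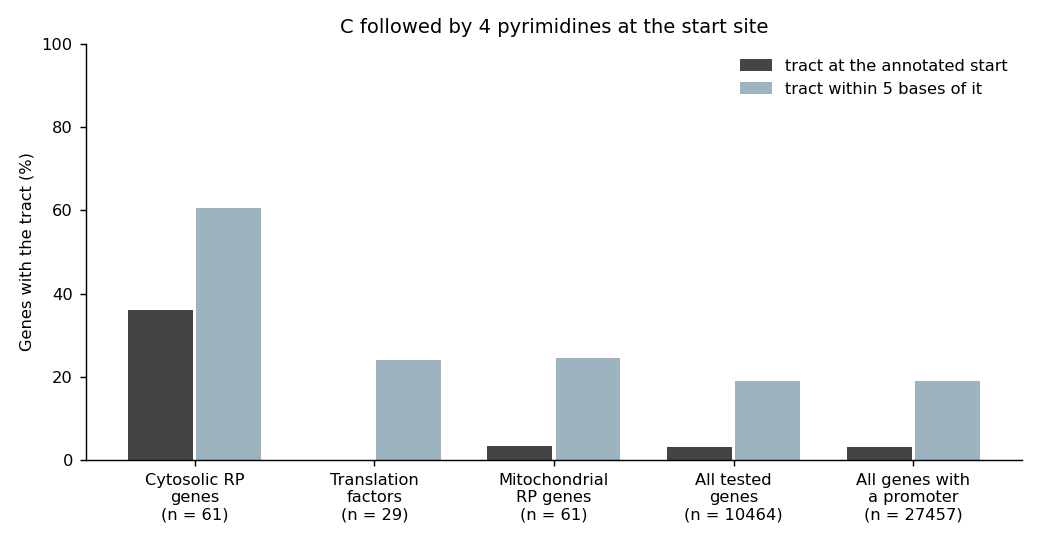
Share of genes with a C followed by 4 pyrimidines at the annotated start (dark bars) or within 5 bases of it (light bars), in percent of genes with a RefSeq promoter. Ribosomal protein genes reach 36.1% and 60.7%, against 3.11% and 19.0% of all genes with a promoter.

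The ribosomal protein genes moved together between the 3 libraries, by a small amount. Spread was tested by comparing the reads of each gene, by chi-square, with library sizes scaled by TMM (edgeR), with Benjamini-Hochberg adjustment over all 13309 genes holding 30 reads or more, and a threshold of 0.05. The test compares these libraries and not conditions, and counts duplicated reads as independent. Spread beyond counting noise was found in 74 of 79 members tested, against 23.2% of all genes tested. Members have many reads, which makes small differences detectable: among genes averaging 100 CPM or more (scaled reads per 1000000), 72 of 75 members passed, against 51.4% of 2180 genes. Without ATR 1 the test found spread in 23 members, against 11.9% of all genes. Without ATR 2 it found spread in 68 (14.6% of all genes), and without ATR 3 in 63 (17.3%). With library totals in place of TMM, 72 members passed (23.8% of all genes), and among genes with whole counts alone, 30 of 31 members passed (20.9%).

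ATR 1 was the lowest library for 74 of 79 members, against 35.1% of all genes tested. Both lowest in ATR 1 and past the test were 70 members, against 9.07% of all genes. Among genes averaging 100 CPM or more it was lowest for 71 of 75 members and for 36.3% of genes. The median deviation from a gene's own mean, on the log2(CPM + 0.5) scale, was -0.10, 0.05 and 0.06 for members. For all genes tested the medians were -0.00051, 0.0011 and 0.0010. The median member had 1.11 times the scaled reads in ATR 2 and 1.12 times in ATR 3 as it had in ATR 1, while ATR 3 and ATR 2 differed by 1.01 times. ATR 3 was the highest library for 47 members, against 32.0% of all genes, and ATR 2 for 31 members, against 34.1%. Large and small subunit genes had the same median deviation in ATR 1, -0.10. None of the 79 tested members differed by 2 times or more between any 2 libraries, and the largest difference among them was 1.38 times.

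**Figure D3:**
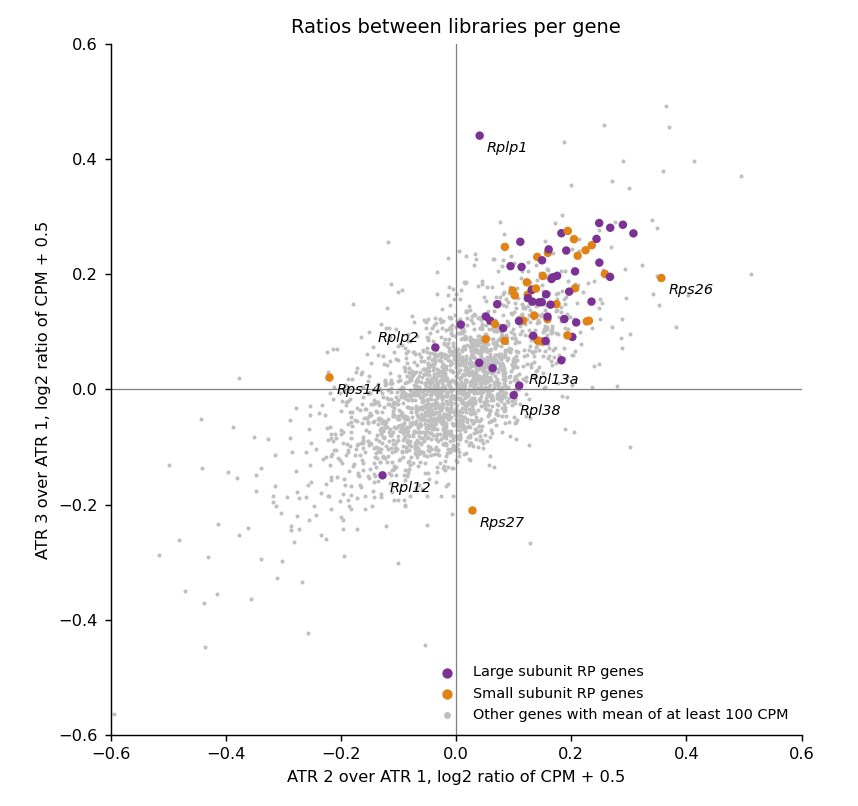
Log2 ratio of scaled reads in ATR 2 over ATR 1 (x axis) and ATR 3 over ATR 1 (y axis) for ribosomal protein genes (coloured points) and other genes averaging 100 CPM or more (grey, within the axis limits). Members lie in the upper right around medians of 0.15 and 0.16, apart from Rps14, Rps27, Rpl12 and a few others.

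The members with the largest spread among those that passed were mostly of the same pattern. Rplp1, which had 142, 144 and 196 estimated reads, was highest in ATR 3 and had an SD of 0.24 on the log2 scale. Rps26, a small subunit protein that contacts mRNA at the exit side, had 802, 1005 and 892 TPM, with ATR 1 lowest and ATR 2 highest. Rpl13, a large subunit protein, had 1064, 1289 and 1249 TPM. ATR 1 stood below both other libraries there.

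Rpl37, whose row RefSeq now names Rpl37l1, had 843, 1010 and 1001 TPM, and Rpl7, a large subunit protein, had 934, 1101 and 1104 TPM. Rpl5, which with Rpl11 and 5S ribosomal RNA can bind the p53 regulator Mdm2, had 671, 779 and 797 TPM. These genes had ATR 1 lowest and the other libraries close together. Rpl35 had 1254, 1454 and 1463 TPM. Deviations in ATR 1 were -0.18 for Rps26, -0.19 for Rpl13 and -0.18 for Rpl5.

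The exceptions were few. Rps27 was highest in ATR 2 and lowest in ATR 3, with log2 deviations of 0.06, 0.09 and -0.15 and an adjusted p of 9.3e-09 by the chi-square test. Rps14 was lowest in ATR 2, with deviations of 0.07, -0.15 and 0.09. Rplp2 was also lowest in ATR 2, and Rpl38 and Rpl12 were lowest in ATR 3. The 5 tested members that did not pass were Rpl23, Rpl24, Rps28, Rpl12 and Rpl10l, with adjusted p of 0.42, 0.21, 0.12, 0.64 and 0.90. Rpl23 had 1216, 1223 and 1221 TPM, the smallest SD in TPM, 4.01, of the members above 100 TPM.

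Some of these values changed when copy rows were added. When the reads of a member were summed with those of its copy rows, Rps14 deviated by -0.03, -0.04 and 0.06, and ATR 2 remained its lowest library. Rps14-ps7 alone had 635, 778 and 718 TPM, the reverse order of Rps14 between ATR 1 and ATR 2. Rpl38 was lowest in ATR 1 after summing and no longer passed, with an adjusted p of 0.16 by the chi-square test. Rpl35a had deviations of -0.04, -0.03 and 0.07 alone and -0.12, 0.03 and 0.09 with its copies, of which Rpl35al1 had 19.8, 106 and 83.6 TPM. The deviation of Rps26 in ATR 1 was -0.09 with copies, of which Rps26-ps11 had 95.7, 0 and 17.0 TPM. Rps27 did not change with its copy, at 0.06, 0.09 and -0.15. With copies summed, 75 of 79 members were lowest in ATR 1 and 73 passed the test, against 23.1% of all genes.

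**Figure D4:**
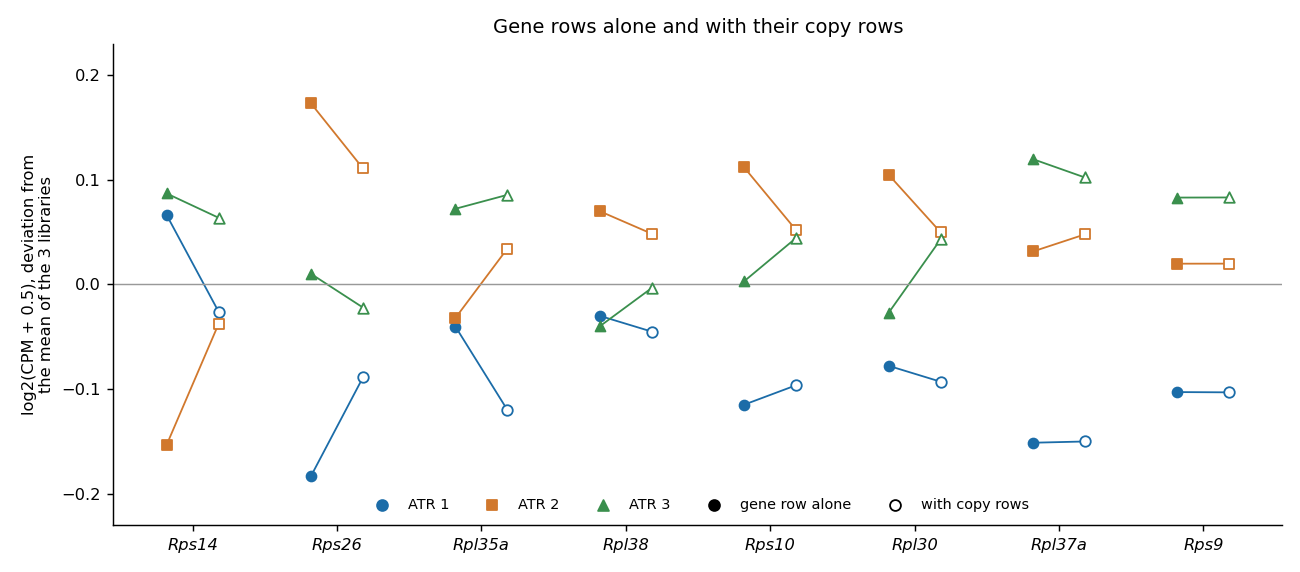
Deviation of log2(CPM + 0.5) from the mean of the 3 libraries for 8 genes, from the gene's row alone (filled) and summed with its copy rows (open). Summing takes Rps14 in ATR 2 to -0.04 against -0.15 alone and Rpl35a in ATR 1 to -0.12 against -0.04 alone, while Rps9 stays at -0.10 in ATR 1.

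Scaled to the summed reads of the members, which takes out the shift they share, 46 of 79 showed spread beyond counting noise, against 48.9% of all genes under that scaling. At 100 CPM or more the test found spread in 45 of 75 members, against 90.6% of all genes at that level. Over all genes this scaling raised the count to 6512, against 3087 by TMM, since it passes the members' shift on to other genes. The contrast between members and all genes is thus set by the scaling and is no result about the members. Among members, Rps14, Rpl13a and Rps27 had the smallest adjusted p by the chi-square test, 6.6e-38, 2.9e-23 and 9.8e-20. These are values of the rows alone. Rps14 and Rps27 have counts that are not whole and 1 copy row each. By TMM the deviations of Rps14 changed when its copy was added and those of Rps27 did not, as given above. Rpl13a, which has whole counts and no copy row, deviated by 0.07 in ATR 1, 0.03 in ATR 2 and -0.09 in ATR 3. On the same scaling Rpl3, a large subunit protein that reaches towards the peptidyl transferase centre, deviated by -0.02, -0.06 and 0.07.

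Some ribosomal protein genes have symbols outside the rule. Fau, whose product holds a small subunit protein, had 982, 1054 and 1064 TPM. Rack1, a scaffold on the small subunit, had 842, 954 and 929 TPM, and Rpl36al had 298, 326 and 312 TPM. All 6 genes of this list that were tested were lowest in ATR 1, with a median deviation of -0.11. The test was passed by 4 of 6, against 23.2% of all genes and 51.4% of genes averaging 100 CPM or more.

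Other translation genes had smaller median deviations in ATR 1. Of 34 translation factors, 22 passed the test, against 23.2% of all genes and 51.4% of genes averaging 100 CPM or more. Lowest in ATR 1 were 22 of 34, against 35.1% of all genes, with median deviations of -0.05, -0.0011 and 0.04. The elongation factors Eef1a1 and Eef2 averaged 5028 ± 345 and 1368 ± 66.7 TPM (SD, n = 3). Tpt1 and Eef1g averaged 2256 ± 86.2 and 1413 ± 32.6 TPM (SD, n = 3). Of 32 ribosome assembly genes, 23 were highest in ATR 3, against 32.0% of all genes, and 12 passed, against 23.2%. Their median deviations were -0.04, -0.01 and 0.06, and 18 of 32 were lowest in ATR 1, against 35.1%. Npm1 and Ncl, abundant nucleolar proteins, averaged 724 ± 63.7 and 430 ± 35.8 TPM (SD, n = 3). Nop10 and Fbl, which belong to RNA-modifying complexes, averaged 140 ± 2.42 and 102 ± 7.30 TPM (SD, n = 3).

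Of 74 mitochondrial ribosomal protein genes tested, 43 were lowest in ATR 1, against 35.1% of all genes, and 8 passed, against 23.2%, with a median deviation of -0.04 in ATR 1. Mrpl33 and Mrpl17 led them at 273 ± 22.7 and 256 ± 7.85 TPM (SD, n = 3), far below the cytosolic family. Of 14 genes of the mTORC1 and LARP1 list, 2 passed, against 23.2% of all genes, and 8 were lowest in ATR 1, against 35.1%, with a median deviation of -0.02. Rheb, the activator of mTORC1, averaged 198 ± 4.02 TPM, Eif4ebp1 127 ± 8.42 TPM and Larp1 86.4 ± 0.895 TPM (SD, n = 3).

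**Figure D5:**
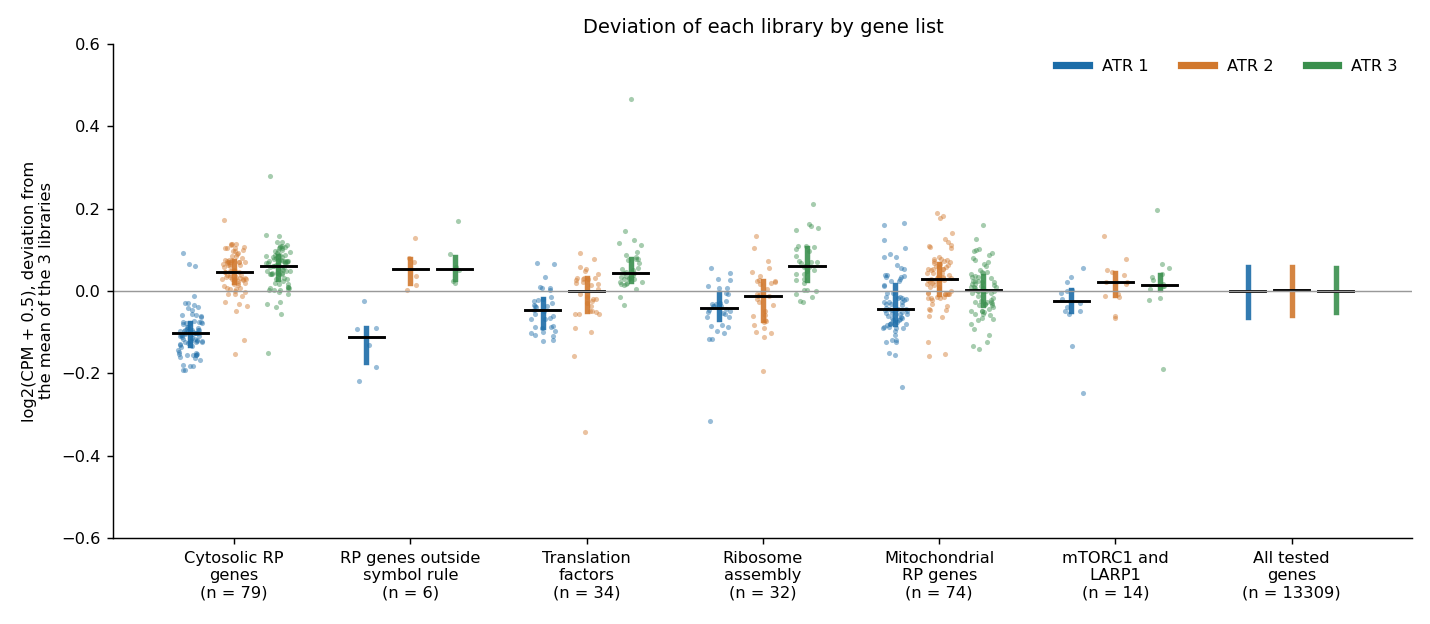
Deviation of log2(CPM + 0.5) from each gene's mean in ATR 1, ATR 2 and ATR 3 for 7 sets of genes (points, genes tested; thick bars, quartiles; black lines, medians; single genes are not drawn for all tested genes). Cytosolic ribosomal protein genes have a median of -0.10 in ATR 1, while the medians of all tested genes lie within 0.0011 of 0.

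Direction was also counted by start tract. Members with the tract within 5 bases of the start were lowest in ATR 1 in 34 of 37 cases, with a median deviation of -0.10. Members without it were lowest there in 21 of 23 cases, also with a median of -0.10. Among tested genes outside the family, 33.5% of 1950 with the tract and 35.5% of 8454 without it were lowest in ATR 1. The annotated start may differ from the one used in these cells.

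Cell type markers differed between the same libraries. Summed granulosa markers stood at 3179, 2879 and 2773 TPM, and 5 of 8 tested were highest in ATR 1, against 33.9% of all genes. Smooth muscle markers were also highest in ATR 1 in sum, as given above, but the list was split. Of its 6 genes, 4 were highest in ATR 1, against 33.9% of all genes, and 2 were lowest there, against 35.1%. Stromal fibroblast markers summed to 613, 645 and 643 TPM, with 4 of 7 lowest in ATR 1, against 35.1% of all genes, and the other 3 highest there. Thy1, one of the 4, had 23.2, 104 and 82.7 TPM. Leukocyte markers summed to 94.8, 120 and 118 TPM, with 3 of 6 lowest in ATR 1, against 35.1% of all genes. The test was passed by 1 of these 6, against 23.2% of all genes. It was passed by 6 of 8 granulosa, 5 of 6 smooth muscle and 6 of 7 stromal fibroblast markers. Of 6 surface epithelium markers tested, 3 were highest in ATR 1, against 33.9% of all genes, and 2 lowest there, against 35.1%. The test was passed by 5 of those 6. The part of these cell types in the shift of the ribosomal protein genes was not tested.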

How the data were processed

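The authors deposited, per the file headers, a TPM value and an estimated count of reads for each gene and library. Tools listed in the submitters' processing notes are HISAT2 2.2.1, StringTie 2.1.5 and fastp 0.20.1, with the builds Rnor_6.0 and GRCm38 and no roles. Columns of the 3 ATR libraries were used. Per the labels' protocols, poly(A) RNA was read as pairs of 150 bases, and no strand marking is described. Library totals were 18677212 to 19170552 reads.

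Estimated counts were rounded. Scaling used TMM of edgeR 4.0.16 (R 4.3.3), or DESeq2 1.42.0 size factors as an alternative. No contrast within 1 group could be fitted, so spread was tested by chi-square (scipy 1.17.1, Python 3.11.15), which was tested on simulated data. Names, copy rows and start sites came from RefSeq GRCr8, with 16392 of 17525 identifiers and 77 of 80 members matched. Coordinates are of that build, not the authors'.

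Members and lists were chosen with earlier results of these data known. Named with all values were the 10 most abundant members, those under 10 TPM, the 8 with the largest log2 SD past the threshold, and gene and copy pairs. Members singled out as exceptions, as low levels or for copy rows, and Thy1, were chosen after their values were seen. Some genes that this rule names are not reported here.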

Additional observations from a re-analysis of the deposited data

How the results depend on the processing

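No paired analysis was possible because only ATR libraries were analysed, and the alternatives planned for ATR against Control were not run. The share of TPM held by the members, 9.51%, was 2.72% as a share of reads and 3.82% with the 32 whole-count members alone. With 1 library left out it was 9.38% to 9.77%. The large to small subunit ratio of 1.28 was 0.845 from medians. The count of 74 members with spread beyond counting noise was 72 to 74 under the other scalings by library totals, DESeq2 size factors or TMM without the members. It was 30 when whole-count genes alone were tested, where fewer members were available, and 46 when scaled to member reads. With 1 library left out it was 23 (without ATR 1) to 68 (without ATR 2). Over all genes the count was 3087, with 6512 when scaled to member reads and 1528 to 2230 with 1 library left out. The count of 74 members lowest in ATR 1 was 73 or 74 under the scalings other than to member reads. It was 71 by deposited TPM and 74 with a pseudocount of 1. Leaving out ATR 2 or ATR 3 gave 76, but there ATR 1 was set against a single library. Of the 31 tested members with whole counts, 31 were lowest in ATR 1. The median deviation in ATR 1 lay between -0.07 and -0.10 under each alternative tried except scaling to member reads. That scaling takes out the shared shift. Without ATR 1 the deviation in ATR 1 has no value. The share of members with the start tract was 36.1%, and 60.7% within 5 bases. The deviation of Rps27 in ATR 1 was 0.06, and -0.014 without ATR 3 to 0.11 without ATR 2. Sums with copy rows, scaling to member reads and directions of whole-count members were added after seeing the data. At these depths, genes with few reads such as Rpl39l, with 7 to 10 reads, cannot be compared between libraries.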
